A study of Mus musculus with 8 samples.

Results

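The genes described here are 8 genes of cholesterol synthesis and its feedback, Hmgcs1, Idi1, Fdps, Fdft1, Sqle, Lss, Cyp51 and Insig1, in mouse fetal liver with and without EKLF. They were chosen by symbol: every probe set to which the platform annotation gives 1 of these symbols, and no other symbol, was taken, which gave 21 probe sets for the 8 genes among 18193 genes named on the array. That rule uses no measured value, but the genes were chosen with earlier results of these data known. Some steps of the pathway were not analysed here.

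Total RNA of E14.5 fetal livers was hybridized to Affymetrix arrays, 1 array per embryo. WT and KO each had 4 embryos, with replicate numbers 1 to 4 in WT and 2 to 5 in KO. Both genotypes were B6 mice, and the KO (Eklf-/-) embryos came from a homozygous knockout line of Eklf (Klf1) made with an engineered BAC construct and E2A-Cre mice, so the knockout was one of the whole animal and not of 1 cell type. The livers were neither sorted nor cultured, and no agent was given. In such bulk RNA, fewer cells of a type and less RNA per cell cannot be told apart.

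Cells build cholesterol from acetyl-CoA by way of mevalonate. HMG-CoA synthase (Hmgcs1) makes the precursor of mevalonate, isopentenyl diphosphate isomerase (Idi1) and farnesyl diphosphate synthase (Fdps) build the isoprenoid chain, squalene synthase (Fdft1) joins farnesyl units and commits them to sterols, squalene epoxidase (Sqle) and lanosterol synthase (Lss) close the ring system, and lanosterol demethylase (Cyp51) starts the trimming towards cholesterol. INSIG1 retains the SREBP transcription factors in the endoplasmic reticulum when sterol is plentiful, and SREBP released from it switches on the genes of the whole pathway, Insig1 included. In fetal liver both the hepatocyte lineage, which exports lipid, and the dividing erythroblasts, which make membrane, use this pathway.

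EKLF binds the CACCC motif, and the promoter sequences are shown for members with and without that motif. In Hmgcs1 it overlaps a match to TCACNCCAC, the form of the sterol regulatory element searched here. Lss has CACCC without such a match, and Idi1 has neither. Only this exact form was searched, so a promoter without a match is not thereby shown to lack the element. Of the 8 genes, 5 had a promoter in the RefSeq table used here (GRCm38.p6): Hmgcs1, Idi1, Lss, Cyp51 and Insig1. The sequences for Hmgcs1, Lss and Idi1 give the 250 bases before the annotated start, on the strand of the gene, 5′ to 3′, at chr13:119690101-119690350 (+), chr10:76531355-76531604 (+) and chr13:8885356-8885605 (+). Capitals mark matches on either strand to CACCC (reverse complement GGGTG), to CCAAT (reverse complement ATTGG) and to the sterol regulatory element TCACNCCAC.
Hmgcs1: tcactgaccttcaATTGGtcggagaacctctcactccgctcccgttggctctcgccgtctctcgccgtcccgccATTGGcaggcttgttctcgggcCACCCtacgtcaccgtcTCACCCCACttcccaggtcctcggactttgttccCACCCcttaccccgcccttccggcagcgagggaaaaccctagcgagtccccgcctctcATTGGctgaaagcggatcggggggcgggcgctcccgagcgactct
Lss: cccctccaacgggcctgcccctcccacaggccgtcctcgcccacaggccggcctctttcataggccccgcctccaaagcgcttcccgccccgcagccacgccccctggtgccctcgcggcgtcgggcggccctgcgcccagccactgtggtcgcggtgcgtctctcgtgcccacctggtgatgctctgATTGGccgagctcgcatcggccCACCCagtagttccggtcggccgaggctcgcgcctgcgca
Idi1: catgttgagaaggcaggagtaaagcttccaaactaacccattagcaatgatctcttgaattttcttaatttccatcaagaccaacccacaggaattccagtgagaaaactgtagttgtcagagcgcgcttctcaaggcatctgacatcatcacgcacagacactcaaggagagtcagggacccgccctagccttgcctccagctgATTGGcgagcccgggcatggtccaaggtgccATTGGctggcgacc

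The Hmgcs1 promoter held 3 matches to CACCC, 3 to CCAAT and 1 to the sterol regulatory element, TCACCCCAC at -137 to -129 from the start. That element contains the CACCC match at -136 to -132, so the same letters answer to both motifs. Lss held 1 CACCC match and 1 CCAAT match, and so did Insig1. Idi1 held no CACCC match and 2 CCAAT matches, and Cyp51 no CACCC match and 1 CCAAT match. Of 32851 promoters of the same length, 52% held CACCC, 33.8% held CCAAT and 1.05% held TCACNCCAC. The 5 promoters together thus covered members with and without CACCC, and each held CCAAT.

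Klf1 itself was 9.81-fold lower in KO, with a mean log2 signal of 13.95 (SD 0.076) over the 4 WT arrays and 10.65 (SD 0.11) over the 4 KO arrays. The array titles carry 1 code for all WT and another for all KO embryos, so any difference in preparation that this code stands for and the genotype cannot be told apart. Xist, which is transcribed from the inactive X chromosome, had a log2 signal of 13.03 in WT replicate 1 and 5.37 to 6.84 in the other 7 arrays on its brightest probe set, so WT replicate 1 stood apart. Markers are given on their brightest probe sets, where 21% of all genes tested were lower in KO and 25.5% higher. Of erythroid genes measured, 7 of 8 were lower in KO (summed signal 106884 to 117086 in WT and 42052 to 45082 in KO). Of hepatocyte genes 6 of 9 were lower and 1 higher (221676 to 245852 in WT and 142713 to 176301 in KO). Other probe sets could differ. Slc4a1 also had 1 called higher (log2 difference 1.46), Hnf4a had 1 of 4 called higher, and Afp had 1 at 1.75 that was not called. Higher in KO were 6 of 8 endothelial genes (5550 to 6006 in WT and 6976 to 8444 in KO), 5 of 8 stellate and mesenchymal genes (12246 to 13001 in WT and 16462 to 24931 in KO) and 4 of 6 megakaryocyte genes (23324 to 26552 in WT and 27722 to 35494 in KO). Of 9 macrophage genes tested, none was called on its brightest probe set (17733 to 21964 in WT and 12104 to 26162 in KO). Vcam1 had 2 of its 3 probe sets called higher, and Cd163 lay below the signal minimum in both genotypes. The defining markers of liver, Alb and Afp, and of erythroid cells, Slc4a1 and Tfrc, were bright in every array. The part of these shifts in the results for the synthesis genes was not tested.

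The members did not move as a block. A probe set was tested where the WT or the KO mean exceeded a MAS5.0 signal of 100, and it counted as called where the limma p, adjusted by Benjamini-Hochberg over all 23379 probe sets tested, was under 0.05. Of the 21 member probe sets 17 were tested, and of these 3 were lower in KO, 2 were higher and 12 were not called. Over all probe sets 17.7% were called lower, 34.4% higher and 52.2% in either direction, so the share of members called lower, 17.6%, was close to that background, and the share called in either direction, 29.4%, was below it. The median log2 difference (KO minus WT) was -0.19 over the member probe sets and 0.17 over all probe sets tested. In 2 member probe sets the KO values were all above the WT values, in 4 they were all below, and in 11 the groups overlapped, whereas 49.8% of all probe sets tested had groups that did not overlap.

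With each gene represented by its brightest probe set, 1 of the 8 genes rose (Fdps), 1 fell (Hmgcs1) and 6 were not called. Over 11275 genes tested in the same way 25.5% were higher and 21% lower. The median log2 difference was -0.012 over the 8 genes and 0.060 over all genes. The mean log2 signal of the 8 genes was 11.96, 11.94, 11.93 and 11.93 in WT (here and throughout in the order of replicates 1 to 4) against 12.05, 11.78, 12.05 and 12.05 in KO (replicates 2 to 5). The WT arrays thus lay within a narrow band, 3 KO arrays lay just above it and KO replicate 3 lay below it.

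**Figure D1:**
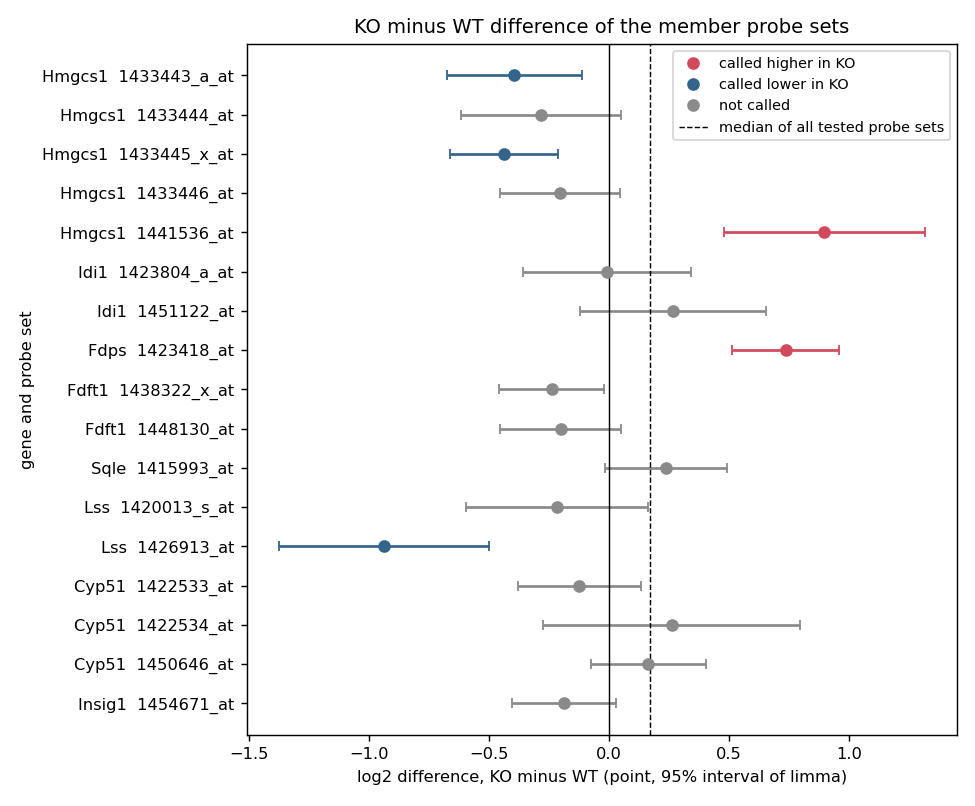
Log2 difference (KO minus WT, 4 arrays each) of the 17 tested probe sets, in pathway order, as points with the 95% interval of limma; the dashed line is the median of all probe sets tested (0.17). Fdps and the dim Hmgcs1 probe set 1441536_at lie to the right, Lss 1426913_at and the bright Hmgcs1 probe sets to the left, and most intervals cross 0.

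Hmgcs1 fell in KO on the probe sets that measure it brightly. On the brightest, 1433445_x_at, the log2 signal was 14.16, 14.10, 13.96 and 14.11 in WT and 13.67, 13.52, 13.64 and 13.76 in KO. No KO array reached the WT range, and the means of 14.08 ± 0.085 and 13.65 ± 0.099 (SD, n = 4 each) gave a 1.35-fold lower signal (log2 difference -0.44, SE 0.098, adjusted p = 0.0058 from limma). On 1433443_a_at the log2 signal was 13.86, 13.55, 13.59 and 13.68 in WT and 13.34, 13.15, 13.12 and 13.50 in KO, again without overlap (log2 difference -0.39, SE 0.12, adjusted p = 0.026 from limma). On 1433444_at (log2 difference -0.28, adjusted p = 0.13) and 1433446_at (log2 difference -0.20, adjusted p = 0.15) the KO mean was also the lower, but the groups overlapped and neither was called.

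A dim Hmgcs1 probe set went the other way. On 1441536_at the log2 signal was 6.97, 6.34, 6.57 and 6.73 in WT and 7.85, 7.38, 7.22 and 7.74 in KO, with all 4 KO arrays above the WT range. The difference was 0.90 on the log2 scale (SE 0.18, adjusted p = 0.0038 from limma), a 1.86-fold higher signal, but the WT mean of 6.65 lay barely above the log2 signal minimum of 6.64. WT replicates 2 and 3 were themselves below that minimum, and the call was lost with quantile normalization (0.47, adjusted p = 0.095). The fall of Hmgcs1 is thus that of the 2 called bright probe sets, and 1441536_at did not share it.

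The Hmgcs1 fall also depended on the scaling. With quantile normalization the log2 difference was -0.038 on 1433445_x_at and -0.053 on 1433443_a_at, and with the arrays scaled to their hybridisation controls it was 0.31 and 0.35, none of them called. With scaling to the poly-A controls or the 75th percentile it stayed called on both. On 1433443_a_at the call was also lost with no filter on low signals (adjusted p = 0.088), with WT replicate 1 left out (-0.33, adjusted p = 0.071), with WT replicate 4 left out (-0.39, adjusted p = 0.058) and with KO replicate 3 (-0.35, adjusted p = 0.062) or KO replicate 4 (-0.34, adjusted p = 0.058) left out.

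Idi1, the isomerase that makes the reactive isoprene unit, was not called. On its brightest probe set, 1451122_at, the log2 signal was 12.27, 12.23, 12.30 and 12.16 in WT and 12.76, 12.04, 12.80 and 12.43 in KO. The WT arrays lay close together, while KO replicates 2 and 4 lay above all of them and KO replicate 3 below, which gave an SD of 0.36 in KO against 0.062 in WT. The log2 difference was 0.27 (95% interval -0.12 to 0.65, adjusted p = 0.21 from limma). It was called higher with KO replicate 3 left out (0.42, adjusted p = 0.025), with quantile normalization (0.46, adjusted p = 0.049) and with the hybridisation controls (1.02, adjusted p = 0.0016). On 1423804_a_at the values were 11.52, 11.78, 11.42 and 11.71 in WT and 11.93, 11.41, 11.36 and 11.69 in KO, with a log2 difference of -0.01 (95% interval -0.36 to 0.34).

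Fdps rose in KO, with the smallest adjusted p of the 17 member probe sets. This synthase makes farnesyl diphosphate, from which sterols, dolichol, ubiquinone and the lipid anchors of proteins all derive. On 1423418_at the log2 signal was 12.43, 12.51, 12.50 and 12.33 in WT and 13.20, 13.12, 13.30 and 13.08 in KO. The 4 KO arrays all lay above the 4 WT arrays, with a gap wider than the range of either group. The means were 12.44 ± 0.083 and 13.18 ± 0.097 (SD, n = 4 each), a 1.67-fold higher signal (log2 difference 0.74, SE 0.098, adjusted p = 0.00039 from limma). It was called higher under all 27 alternatives run, with log2 differences from 0.47 (75th percentile scaling) to 1.48 (hybridisation controls). The other Fdps probe set, 1438150_at, lay below the signal minimum in both genotypes and was not tested.

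Fdft1, at the step that commits farnesyl diphosphate to sterols, had a lower mean in KO on both tested probe sets and was called on neither. On 1438322_x_at the log2 signal was 12.41, 12.37, 12.37 and 12.27 in WT and 12.06, 12.04, 12.10 and 12.27 in KO. The KO arrays all lay below the WT range, by a narrow margin between WT replicate 4 and KO replicate 5, and the log2 difference was -0.24 (95% interval -0.46 to -0.020, adjusted p = 0.064 from limma). It was called lower in 8 of 27 alternatives, among them the trend option of limma (adjusted p = 0.026) and KO replicate 5 left out (-0.29, adjusted p = 0.034), and higher in 1, the hybridisation control scaling (0.51, adjusted p = 0.0067). On 1448130_at the log2 difference was -0.20 (95% interval -0.45 to 0.051, adjusted p = 0.16), with KO values of 11.26 to 11.48 inside and below the WT range of 11.40 to 11.73. Probe sets 1438918_at and 1438919_x_at were below the signal minimum and not tested.

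Sqle, which adds the oxygen to squalene and is a rate-controlling enzyme of the pathway, had log2 signals of 11.46, 11.82, 11.57 and 11.68 in WT and 11.94, 11.73, 11.94 and 11.87 in KO. Of the KO arrays 3 lay above all WT arrays and KO replicate 3 lay within their range. The log2 difference of 0.24 was not called (95% interval -0.017 to 0.49, adjusted p = 0.10 from limma). It was called higher in 4 of 27 alternatives. Among them were quantile normalization (0.38, adjusted p = 0.021 from limma) and the hybridisation control scaling (0.99, adjusted p = 0.00025 from limma). With the 75th percentile it was -0.026 and not called.

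Lss, which folds oxidosqualene into lanosterol, differed between its probe sets. On 1426913_at the log2 signal was 10.19, 10.06, 9.88 and 9.93 in WT and 9.55, 8.66, 9.25 and 8.87 in KO. The KO arrays all lay below the WT range, with means of 10.02 ± 0.14 and 9.08 ± 0.40 (SD, n = 4 each), a 1.91-fold lower signal (log2 difference -0.94, SE 0.19, adjusted p = 0.0037 from limma). On the brighter 1420013_s_at the values were 11.10, 10.76, 10.90 and 10.88 in WT and 10.94, 10.22, 10.78 and 10.83 in KO. There KO replicate 3 alone lay below the WT arrays, and the log2 difference of -0.22 (95% interval -0.60 to 0.16, adjusted p = 0.30) shrank to -0.06 without it.

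The log2 ratio of 1420013_s_at to 1426913_at within an array averaged 0.90 (SD 0.14) over the WT arrays and 1.61 (SD 0.25) over the KO arrays, higher in every KO array than in any WT array (change 0.72, exact permutation test, two-sided, p = 0.029, no smaller value being reachable in this design, adjusted p = 0.065 over 16 pairs of probe sets of the same gene). Such a ratio is unaffected by a single scaling factor per array, and with quantile normalization the probe sets differed in the same order, with log2 differences of -0.21 and -1.13. The call on 1426913_at was lost under hybridisation control scaling (-0.19, adjusted p = 0.47) and under none of the other alternatives. A further probe set, 1420014_at, was below the signal minimum (mean log2 signal 6.44 in WT and 4.65 in KO) and not tested. A fall of Lss thus rests on 1 of its 3 probe sets.

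Cyp51 was called on none of its 3 probe sets, whose log2 differences were 0.16 (1450646_at, the brightest, 95% interval -0.076 to 0.40), -0.12 (1422533_at, 95% interval -0.38 to 0.13) and 0.26 (1422534_at, 95% interval -0.27 to 0.80). On 1450646_at the log2 signal was 11.18, 11.12, 11.14 and 11.32 in WT and 11.35, 11.20, 11.35 and 11.52 in KO, and the groups overlapped. On the dim 1422534_at it was 6.57, 6.67, 6.22 and 6.93 in WT and 7.03, 6.19, 7.06 and 7.16 in KO, where KO replicate 3 lay apart from the other KO arrays. The WT mean of 1422534_at, 6.60, lay below the log2 signal minimum of 6.64, and it was tested through its KO mean of 6.86. Without KO replicate 3 its log2 difference was 0.48 (adjusted p = 0.047 from limma), and no weight is placed on that call. With the hybridisation controls all 3 probe sets were called higher (0.91, 0.62 and 1.01, in the order above). With the 75th percentile 1422533_at was called lower (-0.39, adjusted p = 0.022 from limma).

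Insig1, the sterol-responsive brake on SREBP, had log2 signals of 10.69, 10.58, 10.71 and 10.71 in WT and 10.45, 10.39, 10.48 and 10.62 in KO on its single probe set, 1454671_at. Of the KO arrays 3 lay below all WT arrays and KO replicate 5 lay within their range. The log2 difference of -0.19 was not called (95% interval -0.41 to 0.028, adjusted p = 0.13 from limma). It was called lower in 4 of 27 alternatives, among them the 75th percentile scaling (-0.45, adjusted p = 0.0040 from limma). It was called higher in 1, the hybridisation control scaling (0.56, adjusted p = 0.0039 from limma).

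**Figure D2:**
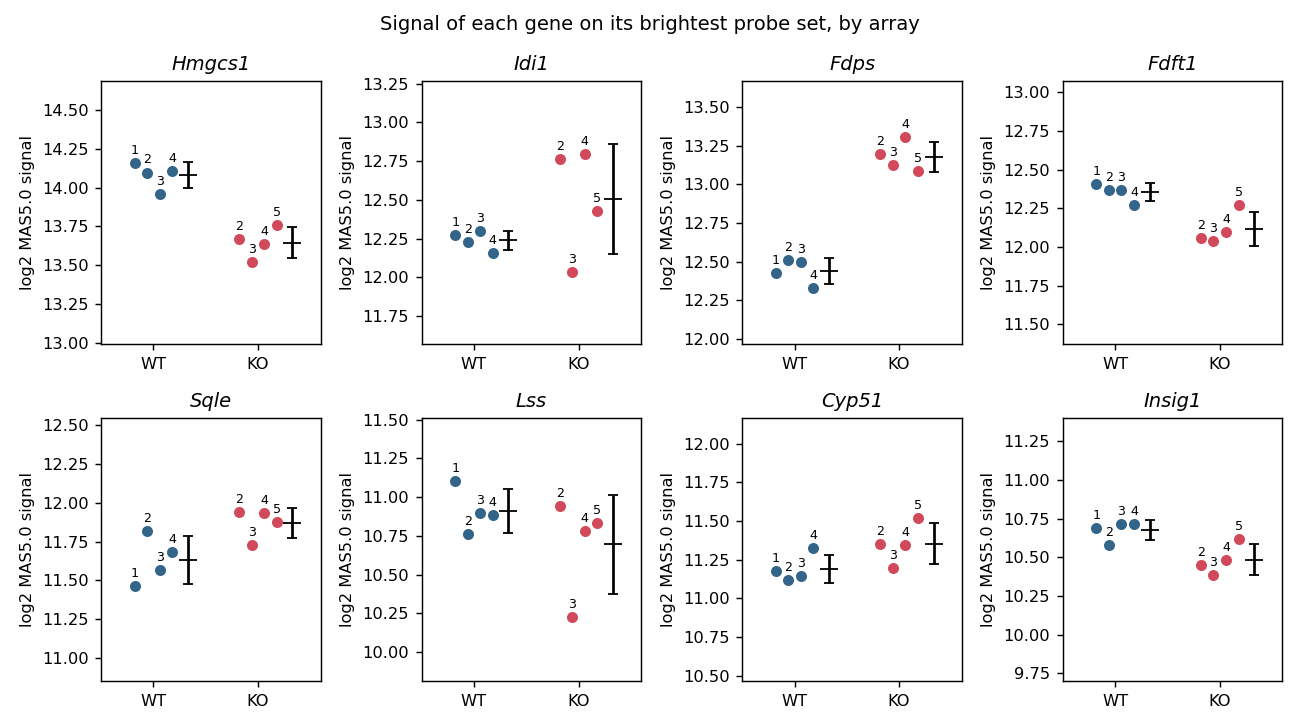
Log2 MAS5.0 signal of each gene on its brightest probe set, 1 point per array with its replicate number (WT blue, KO red), with the mean and SD of each genotype; all panels span the same number of log2 units. Fdps lies higher in all 4 KO arrays, Hmgcs1 lower in all 4, and KO replicate 3 is the lowest KO array for every gene except Fdps.

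The members were also compared with each other inside each array, which takes out any single scaling factor per array but not quantile normalization. For each gene the log2 signal of its brightest probe set was set against the mean of the other 7. By that measure Fdps was higher in KO relative to the rest by 0.79, going from 0.57 ± 0.098 in WT to 1.37 ± 0.15 in KO (SD, n = 4 each), and Hmgcs1 went from 2.45 ± 0.085 to 1.90 ± 0.079, a change of -0.55. Fdft1 (-0.32) and Insig1 (-0.26) also had all KO arrays below the WT range. Each of these 4 had p = 0.029 in an exact permutation test (two-sided, the smallest p that 4 arrays against 4 allow), and Benjamini-Hochberg adjustment over the 8 genes gave 0.057 for each, so none passed 0.05. Sqle (0.23), Lss (-0.29), Cyp51 (0.14) and Idi1 (0.26) had overlapping groups. With quantile normalization the changes were 0.93 for Fdps, -0.27 for Hmgcs1, -0.28 for Fdft1 and -0.46 for Insig1, in the same directions. The 8 ratios share their denominators and are not independent, and they show unequal change, not which gene stayed the same.

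The scaling of the arrays moved the differences of the members. As deposited, the median log2 difference of all probe sets tested was 0.17, and 66.0% of the calls were higher in KO. With quantile normalization the median was -0.0075 and 51.1% of calls were higher, with the 75th percentile -0.095 and 42.1%, with the poly-A controls 0.066 and 62.2%, and with the hybridisation controls 0.92 and 96.8%. Of the 17 member probe sets, 1 was lower and 3 higher with quantile normalization, and 10 lower and 2 higher with the 75th percentile. With the poly-A controls 3 were lower and 2 higher, and with the hybridisation controls 0 were lower and 14 higher. Of all 23379 probe sets tested, 5364 were lower and 5608 higher with quantile normalization, and 7185 lower and 5232 higher with the 75th percentile. With the poly-A controls 3677 of all were lower and 6053 higher, and with the hybridisation controls 603 were lower and 18139 higher. The scalings by 1 factor per array moved the members equally, whereas quantile normalization moved Hmgcs1 (from -0.44 to -0.038) and Fdps (from 0.74 to 1.01) up and left Lss (-0.22 and -0.21) and Insig1 (-0.19 and -0.21) nearly in place. On their brightest probe sets Fdps lay above the median of all probe sets as deposited, and Lss, Fdft1, Insig1 and Hmgcs1 below it. A scaling by 1 factor per array cannot change that order, so only quantile normalization could have done so. With it Fdps stayed above the median and the others below. Hmgcs1 (-0.038) and Fdft1 (-0.049) then lay close to the median of -0.0075.

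**Figure D3:**
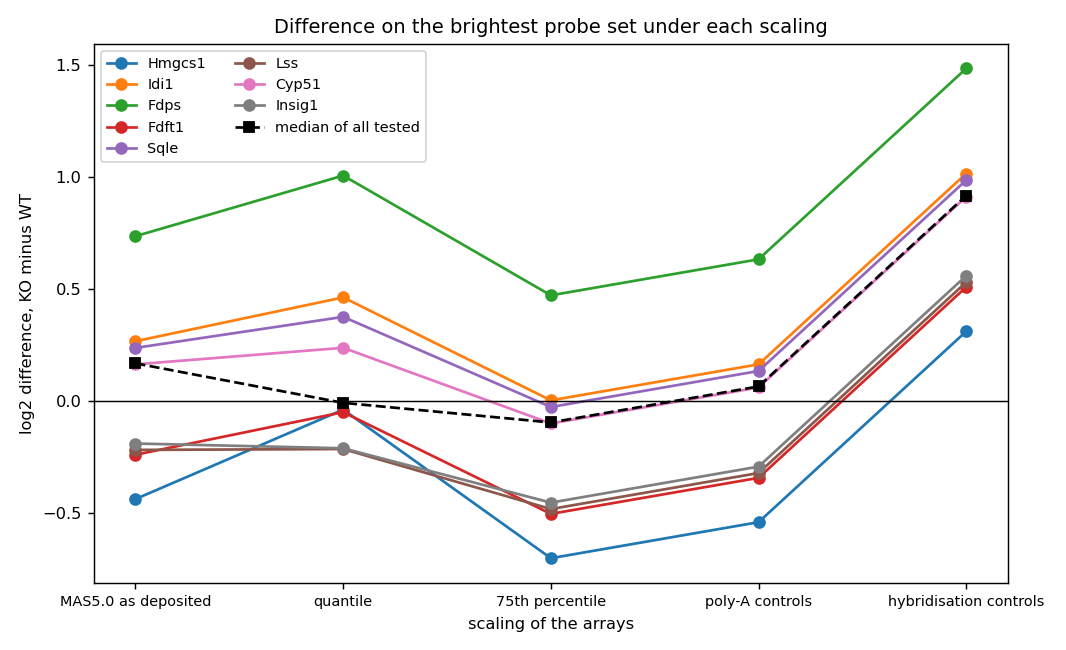
Log2 difference (KO minus WT) of each gene on its brightest probe set under the deposited MAS5.0 scaling and 4 others, with the median of all probe sets tested as squares on a dashed line. The lines run parallel except at quantile normalization, where Hmgcs1 and Fdps lie higher and Insig1 and Lss hardly move. Fdps stays on top from 0.47 to 1.48, and Hmgcs1 lies nearest the median with quantile normalization.

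The mean log2 signal of the 8 members had an SD of 0.13 over the KO arrays and 0.014 over the WT arrays, and KO replicate 3 lay apart from the other KO arrays. It was the lowest KO array for 7 of the 8 members, while 28.5% of all 11275 genes were lowest there. The mean deviation of the members from their KO mean was -0.20 in KO replicate 3 and 0.065 to 0.067 in the other 3 KO arrays. WT arrays deviated by -0.010 to 0.021. The other synthesis genes measured, 12 that are no members, were lowest in KO replicate 3 for 9 of 12, with a mean deviation of -0.27. The counts were 7 of 8 and 9 of 12 with the 75th percentile, 7 of 8 and 10 of 12 with the poly-A controls, and 8 of 8 and 10 of 12 with the hybridisation controls, against 29.9%, 49.8% and 56.4% of all genes.

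KO replicate 3 also had the lowest summed hepatocyte signal of the KO arrays, 142713 against 152441 to 176301, and the highest stellate and mesenchymal signal, 24931 against 16462 to 21658. Its erythroid signal, 44264, lay within the range of the other KO arrays, 42052 to 45082. The part of these levels in the low member signals was not tested. Without KO replicate 3, 4 member probe sets were called higher, adding 1 of Idi1 and 1 of Cyp51 to those of Fdps and Hmgcs1, and 2 were called lower. Among the 12 other synthesis genes 4 were then called higher, Mvd (0.54), Msmo1 (0.37) and Sc5d (0.32) beside Ggps1 (1.01), and Lbr alone lower (adjusted p from limma between 0.00074 and 0.042).

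**Figure D4:**
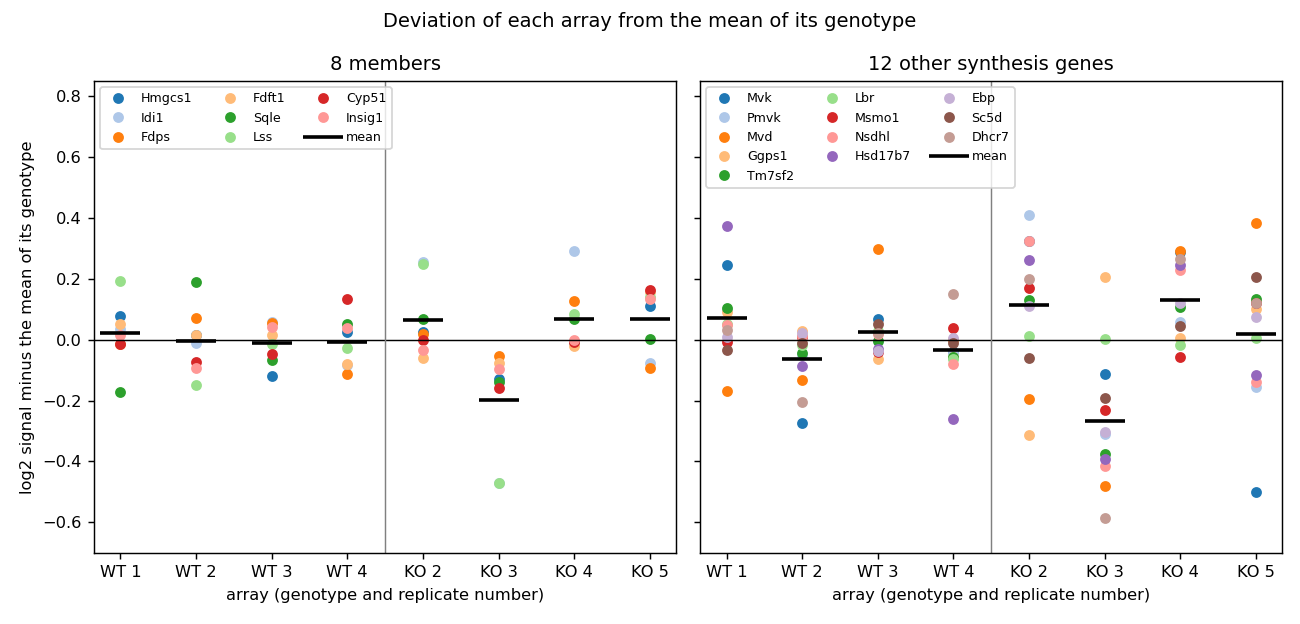
Deviation of each array from the mean of its own genotype, in log2 units, for the 8 members (left) and the 12 other synthesis genes measured (right), 1 point per gene, with the mean of the genes as a bar. In KO replicate 3 the bars lie at -0.20 and -0.27, and in the WT arrays they lie near 0.

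The genes whose array pattern was most like that of the members were sought by Pearson correlation with the mean of the 8 genes over the 8 arrays, after each genotype's mean was subtracted. Among 11284 genes they were Pklr (0.997), which encodes the pyruvate kinase of liver and red cells, Ebp (0.987), a sterol isomerase of the pathway, Pid1 (0.987), Bckdk (0.982), the kinase of branched-chain ketoacid dehydrogenase, and Hsd17b2 (0.982). Of the 12 other synthesis genes, 6 had a correlation over 0.7, as did 7.93% of all genes, and their median was 0.71 against 0.079 for all genes. With the genotype means subtracted, the correlations do not speak to the difference between genotypes. Pklr (-2.79) and Hsd17b2 (-0.74) were called lower in KO, and Ebp, Pid1 and Bckdk were not called. The correlations rest on KO replicate 3. Over the 7 other arrays the median of the synthesis genes was 0.24, that of all genes was 0.011, Pklr was at 0.68 and Ebp at 0.30. The arrays share their processing and cell makeup, so the values describe these 8 embryos.

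Of 14 further cholesterol synthesis genes listed, 12 were measured, and each is given by its brightest probe set. Here 1 rose, 1 fell and 10 were not called (8.33% in each direction, against 25.5% higher and 21% lower over all genes), with a median log2 difference of 0.028. Ggps1, which turns farnesyl diphosphate into the geranylgeranyl donor used for protein lipid anchors, rose 2.12-fold, from a log2 signal of 8.94, 8.88, 8.79 and 8.79 in WT to 9.62, 10.14, 9.94 and 10.03 in KO (log2 difference 1.08, SE 0.13, adjusted p = 0.00021 from limma). All 4 of its probe sets were called higher, with log2 differences of 0.61 to 1.26. In the pathway the Ggps1 enzyme uses farnesyl diphosphate, the product of Fdps, on a branch that does not lead to sterols. Only transcript signals were measured here, and the use of farnesyl diphosphate was not tested. Among the members and these 12 genes, only Fdps and Ggps1 had a brightest probe set called higher in every one of the 27 alternatives.

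Lbr, a lamin receptor of the nuclear envelope that also reduces a sterol double bond, fell from a mean log2 signal of 13.92 (SD 0.051) in WT to 13.24 (SD 0.013) in KO (log2 difference -0.68, SE 0.085, adjusted p = 0.00028 from limma). With the hybridisation controls its difference was 0.066. The brightest of the genes not called were the methyl sterol oxidase Msmo1 (0.30, adjusted p = 0.052), the desaturase Sc5d (0.26), Ebp (-0.17) and Nsdhl (0.0072). Outside that choice, and after their values were seen, Mvd had a second probe set called higher (1448663_s_at, 0.70, adjusted p = 0.0062), and Hsd17b7 had 2 called higher (0.75 and 0.44) beside a brightest probe set at -0.41 that was not called.

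Of 22 genes of sterol sensing and handling listed, 19 were tested, of which 5 rose, 3 fell and 11 were not called, with a median log2 difference of -0.028. The shares of 26.3% higher and 15.8% lower lay near those of all genes tested, 25.5% and 21%. The site proteases that release SREBP in the Golgi both rose, Mbtps2 by 0.54 (adjusted p = 0.0023) and Mbtps1 by 0.27 (adjusted p = 0.041), the latter lost in 14 of 27 alternatives, among them the 75th percentile scaling (0.0034). The lysosomal cholesterol exporter Npc1 (0.91, adjusted p = 0.0063), the lysosomal lipase Lipa (0.46, adjusted p = 0.0066) and the sterol carrier Stard4 (0.45, adjusted p = 0.038) rose as well. The Lipa call was lost in 3 of 27 alternatives, among them the 75th percentile scaling (0.19). The call on this Stard4 probe set was lost in 15 of 27 alternatives, among them the 75th percentile scaling (0.18) and the loss of any 1 WT array. The other probe sets of Stard4 were called higher at 1.21 and 1.70. The 3 that fell were the ubiquitin ligases Rnf139 (-0.78, adjusted p = 0.00073) and Mylip (-0.78, adjusted p = 0.00077) and the ubiquitin-binding cofactor Ufd1 (-0.46, adjusted p = 0.0071). None of these falls held with the hybridisation controls. There Rnf139 was at -0.034 and Mylip at -0.033 (adjusted p = 0.84 and 0.83 from limma), and Ufd1 turned to 0.28.

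The genes for SREBP itself gave no single picture. They are named here after their values were seen. Srebf2 had a log2 difference of -0.06 on its brightest probe set (1452174_at, adjusted p = 0.74), with WT values of 9.13 to 9.43 and KO values of 8.91 to 9.41. On 1426744_at it was 1.32 (adjusted p = 0.00016), with WT at 8.41, 8.75, 8.38 and 8.71 and KO at 9.83, 9.73, 9.75 and 10.21. Srebf1 was at -0.40 (adjusted p = 0.054) and its escort Scap at 0.30 (adjusted p = 0.055), both not called. The cholesterol exporter Abca1, the brightest of the genes not called, was at -0.32 on its brightest probe set (adjusted p = 0.052) and called higher on its others, at 1.23 and 1.40. After it in brightness came Npc2 (-0.08), Scarb1 (-0.31) and Osbp (0.016), all not called.

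Fatty acid synthesis, which SREBP also drives, was listed for comparison. Of 12 genes 11 were tested, of which 1 rose, 1 fell and 9 were not called (9.09% in each direction, against the same shares of all genes), with a median log2 difference of 0.13. Malic enzyme Me1, a source of NADPH, rose by 1.37 (adjusted p = 0.00065). Fatty acid synthase Fasn fell by 0.58 (adjusted p = 0.046), a call lost in 14 alternatives and turned to 0.17 with the hybridisation controls. Of the brightest uncalled genes, Scd2 was at -0.24, Acly at 0.23, Fads1 at -0.15 and Elovl5 at 0.0021. When a gene counted if any of its probe sets was called, 6 of these genes were higher, so the count for this list rests on which probe set stands for a gene.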

How the data were processed

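The values used are MAS5.0 signals of 8 arrays, 4 of WT and 4 of KO embryos. They are the authors' own deposited intensities, on a linear scale, for 45101 probe sets. The submitters' notes give MAS5 and R 3.0.2 as the tools, and the methods name a 430A 2.0 array. All arrays have the same trimmed mean (2% left out at each end). Array signals count no molecules, and the number of embryos limits the precision.

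Signals were taken to log2 with a pseudocount of 0. A probe set was tested where its WT or KO mean exceeded a signal of 100, with 64 controls excluded. Genotype was the single term of a two-sided limma fit (lmFit, eBayes), and p-values were adjusted by Benjamini-Hochberg across the 23379 probe sets that passed. Ratios within arrays were compared by exact permutation over 70 assignments. In the lists a gene stands for its brightest probe set, and the named genes are those called and the 4 brightest of the rest. The 932 probe sets with several symbols named no gene, and the annotation can be old. The members and lists were chosen with earlier results of these data known. The fit was tested on simulated data. Replicate numbers did not pair the arrays.

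The alternatives were other scalings (quantile, 75th percentile, hybridisation controls, poly-A controls), pseudocounts of 16 and 64, other filters, limma's trend and robust options, the methods' t-test, a replicate block and leaving out each array. Leaving out KO replicates 3 and 5, or 2 and 4, was added after seeing the data. Promoters are those of RefSeq on GRCm38.p6. Software: R 4.3.3, limma 3.58.1, Python 3.11.15, scipy 1.17.1, numpy 2.4.6, pandas 2.3.3.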

Additional observations from a re-analysis of the deposited data

Results flagged for a closer look

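Among 34 groups of 4 arrays examined, 1 held an array far from the others. On the dim Cyp51 probe set 1422534_at, KO replicate 3 had a log2 signal of 6.19, and the other 3 KO arrays lay between 7.03 and 7.16, so the gap to the nearest was 0.865 of the whole range. Chance marks about 1 group in 20 in this way. The same array was the lowest KO array for 7 of the 8 members on their brightest probe sets.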

How the results depend on the processing

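Counts are given as probe sets of the 8 members, or as genes of a list on their brightest probe set, and 12195 probe sets in all were called in the values as deposited. With the 75th percentile, 10 member probe sets were lower, as were 5 other synthesis genes, 8 sterol handling genes (2 higher) and 4 fatty acid genes. With the hybridisation controls 18742 probe sets were called in all, 0 members were lower and 14 higher, 0 other synthesis genes lower and 9 higher, 0 sterol handling genes lower and 15 higher, and 0 fatty acid genes lower and 9 higher. With quantile normalization 1 member was lower, 3 other synthesis genes were lower and 3 higher, and 0 fatty acid genes were lower and 2 higher. With the poly-A controls 2 sterol handling genes were higher and 0 fatty acid genes lower. A filter at a signal of 200 left 1 member higher, 2 other synthesis genes lower and 2 higher, and 5 sterol handling genes lower. Without a filter 3 sterol handling genes were higher and 0 fatty acid genes lower. A pseudocount of 16 gave 5 sterol handling genes lower, and one of 64 gave 5 of these lower and 2 other synthesis genes lower and 2 higher. The trend option gave 2 other synthesis genes lower and 3 higher, 6 sterol handling genes lower, and 2 fatty acid genes lower and 2 higher. The methods' t-test in its Welch form gave 0 fatty acid genes lower after Benjamini-Hochberg, and 5 members lower, 3 other synthesis genes higher and 0 fatty acid genes lower at their unadjusted threshold. Its equal-variance form gave 5 members lower and 3 other synthesis genes higher at both thresholds, 0 fatty acid genes lower after adjustment, and 5 sterol handling genes lower unadjusted. Counting any probe set of a gene, 3 other synthesis genes and 6 fatty acid genes were higher.

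Same-numbered arrays did not deviate together (correlations of -0.00084, -0.082 and -0.027). With the replicate number as a fixed block on the 6 arrays that share numbers, 7780 probe sets were called, with 1 member lower (Hmgcs1 1433443_a_at had an adjusted p of 0.10 and 1433445_x_at of 0.064 there), 2 sterol handling genes higher and 0 fatty acid genes lower, and as a random block 1 of the 30 single differences examined lost its call.

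Leaving out 1 array at a time gave 10625 to 12100 calls in all, 2 to 4 member probe sets lower and 2 to 4 higher, 1 to 3 other synthesis genes lower and 1 to 4 higher, 3 to 4 sterol handling genes lower and 3 to 5 higher, and 0 to 1 fatty acid genes lower and 1 to 2 higher. Without KO replicate 3 there were 4 member probe sets and 4 other synthesis genes higher, without KO replicate 2 there were 3 other synthesis genes lower and without KO replicate 4 there were 2. Sterol handling genes higher numbered 3 without KO replicate 4 or 5 or WT replicate 2, 3 or 4. Fatty acid genes lower numbered 0 without KO replicate 3 or 5 or any WT array, and those higher numbered 2 without KO replicate 3 or 4. Without KO replicates 2 and 4, 4 other synthesis genes were lower, and 2 fatty acid genes lower and 2 higher. Without KO replicates 3 and 5, 3 other synthesis genes were higher, and 0 fatty acid genes lower and 3 higher.

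Some single differences changed sign. With the hybridisation controls these were Hmgcs1 at 0.35 (1433443_a_at), 0.47 (1433444_at), 0.31 (1433445_x_at) and 0.55 (1433446_at), Idi1 at 0.74 (1423804_a_at), Fdft1 at 0.51 and 0.55, Lss at 0.53 (1420013_s_at), Cyp51 at 0.62 (1422533_at), Insig1 at 0.56, Lbr at 0.066, Ufd1 at 0.28 and Fasn at 0.17. With quantile normalization they were Hmgcs1 1433444_at at 0.090, Idi1 1423804_a_at at 0.12 and Cyp51 1422534_at at -0.12, and with the 75th percentile Sqle at -0.026, Cyp51 1422534_at at -0.0030 and Cyp51 1450646_at at -0.10. Idi1 1423804_a_at ran from -0.12 to 0.069 over the arrays left out, being 0.054 without KO replicate 3, 0.069 without KO replicate 4, 0.049 without WT replicate 2 and 0.024 without WT replicate 4, and was at 0.041 without KO replicates 3 and 5. Idi1 1451122_at was at -0.0066 without KO replicates 2 and 4. The cause of these changes was not tested. Fdps, Ggps1, Mbtps2, Npc1 and Me1 kept their direction and their call under all 27 alternatives. Dim probe sets near the signal minimum, such as Hmgcs1 1441536_at and Cyp51 1422534_at, are limited by their signal over background.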
